A study of Triticum aestivum with 6 samples.

Results

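The genes described here carry names tied to photosynthetic electron transport: subunits of photosystem I, an assembly factor of photosystem II, plastocyanin and ferredoxin. For a gene described only as ferredoxin, the name does not say whether it serves photosynthesis. They were taken from the authors' deposited DESeq2 table, which lists wheat genes that differed at a false discovery rate (FDR) under 0.05 between groups called K1 and US1. A gene was a member if its own description held the word photosystem, plastocyanin or ferredoxin, and if it was neither a nitrite reductase nor a chlorophyll a-b binding protein. The rule found 10 members among 861 listed genes, 3 of photosystem I, 1 of photosystem II, 2 of plastocyanin and 4 of ferredoxin. Membership thus rests on the authors' own test of this contrast, so every fold change below is a description and no further test was made. The table held 1.12% of the 76618 tests implied by its FDR values, split into 0.576% with a positive and 0.548% with a negative fold change, and nothing about the members can be read from these shares.

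The seedlings were of the winter wheat breeding line SE15 (Triticum aestivum, a hexaploid with subgenomes A, B and D). The control group was 3 leaf samples from untreated seeds. The ultrasound group was 3 leaf samples from seeds sonicated before germination for 5 minutes at 30 kHz and 70 W, with the dish 4 cm from the ultrasound head. Each group started from 100 seeds of 13.6% water content, which germinated at 20 °C in the dark, and samples were taken 7 days after germination. The labels call the samples independent biological ones but give neither the dish nor the number of seedlings behind each. The headers do not state which libraries entered the comparison, nor which group was the numerator. The sign is therefore given as deposited, and the positive side would mean higher expression after ultrasound only if US1 was divided by K1. The files hold no value per library, so neither the level of any gene nor the depth of a library is known, and the leaf label could not be checked against marker levels. In bulk tissue, fewer cells of a type and less RNA per cell cannot be told apart.

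In the light reactions of photosynthesis, photosystem II takes electrons from water and passes them through the cytochrome b6f complex to plastocyanin, a small copper protein in the thylakoid lumen. Plastocyanin carries them to photosystem I, which lifts them to ferredoxin, an iron-sulphur protein of the stroma. Ferredoxin then hands them to NADP reductase, nitrite reductase, thioredoxin reductase and other enzymes. Genes for the photosystem cores lie mostly in the chloroplast genome, whereas the peripheral subunits, plastocyanin and ferredoxin are encoded in the nucleus, and in seedlings light is a main inducer of these nuclear genes. Every member listed here lay on a nuclear chromosome.

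Of the 10 members, 9 lay on the positive side and a single ferredoxin gene was negative. The 9 positive members fell in a band of log2 fold change from 1.02 to 2.00, with a median of 1.28 (2.42-fold). Over all 441 positive genes of the table the median was 1.90, and 8 of the 9 members were below it. Standard errors (SE) were derived from each fold and its p-value. They ran from 0.27 to 0.46 over the 10 members, against a median of 0.43 over all listed genes, and 8 members were below that median. Under the Wald test assumed for the SE, the intervals of 95% implied for the 9 positive members all held the stretch from 1.19 to 1.55. At SEs of this size, clearly smaller folds would have missed the FDR threshold. The lower edge of the band and the shared stretch therefore partly reflect the selection. Differences between members were not tested.

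**Figure D1:**
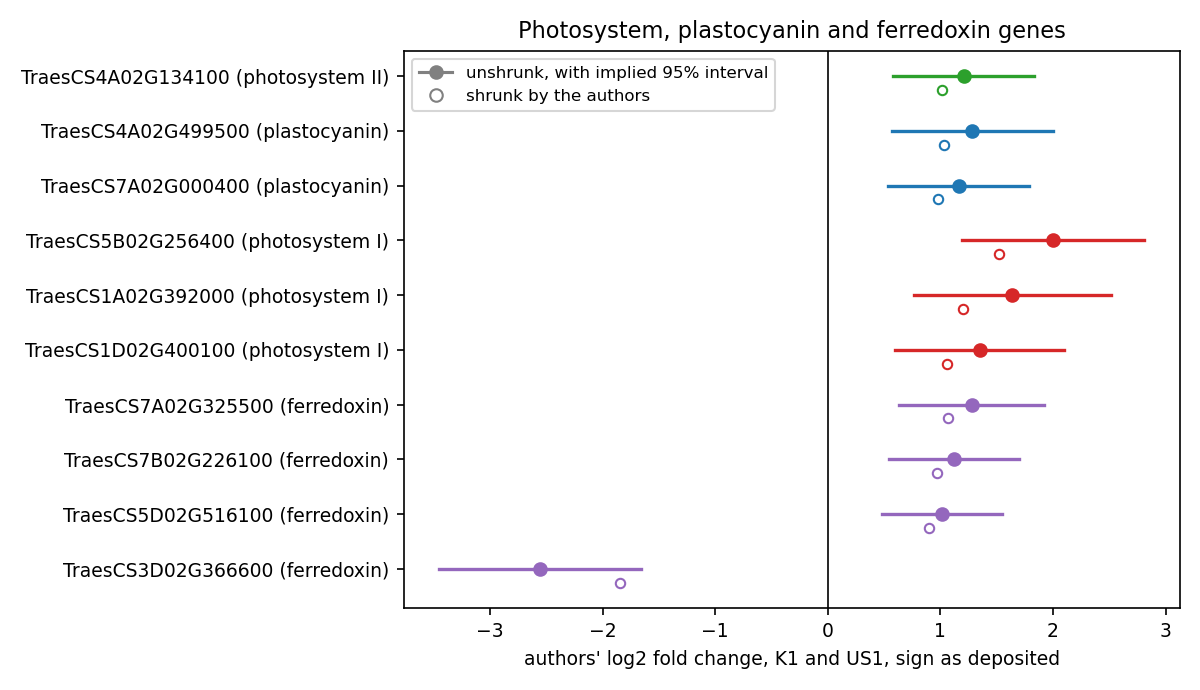
Authors' log2 fold change of each member, with its sign as deposited (x axis), grouped by role (y axis, one gene a line). Filled points are unshrunk values with the 95% interval implied by the p-value, and open points are the values after the authors' shrinkage. The intervals of the 9 positive members overlap between 1.19 and 1.55, and the ferredoxin gene on 3D, at -2.56, is the only negative member.

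Photosystem II was represented by 1 gene. TraesCS4A02G134100 (chromosome 4A, 182128608 to 182129419, plus strand) was described as the repair protein PSB27-H1, by projection from Arabidopsis thaliana. In Arabidopsis this lumenal protein takes part in the assembly and repair of photosystem II and is not a part of the finished complex. In the authors' deposited table its log2 fold change was 1.21 (SE 0.32, 2.31-fold, DESeq2 adjusted p = 0.0227), and 1.02 after shrinkage. No listed gene was described as a structural subunit of photosystem II. Because 72.0% of the listed genes carry no description, and genes outside the table were not analysed here, this does not show that such subunits did not differ. The mRNA was also enriched with poly-T beads, and whether transcripts of the chloroplast genome were measured is not known.

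Both plastocyanin genes were positive, with nearly equal values. TraesCS4A02G499500 (4A, 744433284 to 744433745, minus strand) had a log2 fold change of 1.28 (SE 0.36, 2.43-fold, DESeq2 adjusted p = 0.0424) in the authors' deposited table. TraesCS7A02G000400 (7A, 289316 to 290626, plus strand) had one of 1.16 (SE 0.32, 2.24-fold, DESeq2 adjusted p = 0.0312). Each value lay well inside the interval of the other, which ran from 0.57 to 2.00 for the first gene and from 0.54 to 1.78 for the second. In bread wheat the end of the long arm of 4A is known to derive from 7B by an ancient translocation, so a 4A gene can be the counterpart of a 7A gene. The files do not say whether this pair is one.

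The photosystem I genes included the largest positive folds of the group. TraesCS5B02G256400 (5B, 439227576 to 439228007, plus strand) was described as photosystem 1 subunit 5. Subunit V, also called PsaG, sits at the edge of photosystem I and helps to hold its light-harvesting antenna. Its log2 fold change in the authors' deposited table was 2.00 (SE 0.41, 4.00-fold, interval 2.28-fold to 7.03-fold), with a DESeq2 adjusted p of 7.15e-04. It was the only positive member with an FDR under 0.01, and it ranked 193rd of the 441 positive genes by size. After shrinkage it ranked 82nd, with a value of 1.52.

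Subunit VI of photosystem I, also called PsaH, was listed from 2 of the 3 subgenomes. This subunit lies where the mobile antenna of photosystem II docks onto photosystem I. TraesCS1A02G392000 (1A, 558590999 to 558591872, plus strand) had a log2 fold change of 1.64 (SE 0.45, 3.12-fold, DESeq2 adjusted p = 0.0304) in the authors' deposited table. TraesCS1D02G400100 (1D, 466479965 to 466480902, plus strand) had one of 1.35 (SE 0.38, 2.54-fold, DESeq2 adjusted p = 0.0448). The 2 values differed by less than either SE. Both descriptions were projected from the same rice gene. No gene of 1B with this description was in the table. The 1D gene had the highest FDR of the members and so sat closest to the threshold of the table.

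The 4 ferredoxin genes lay on both sides, 3 positive and 1 negative. The positive ones included the smallest folds of the group. TraesCS7A02G325500 (7A, 473807418 to 473808348, plus strand) had a log2 fold change of 1.28 (SE 0.33, 2.42-fold, DESeq2 adjusted p = 0.0168) in the authors' deposited table. TraesCS7B02G226100 (7B, 426788421 to 426789425, plus strand), the only member with a gene symbol in the files, PETF, had one of 1.12 (SE 0.29, 2.18-fold, DESeq2 adjusted p = 0.0211). Its description, from a Swiss-Prot protein entry, was the only one of the 4 to name the chloroplast. TraesCS5D02G516100 (5D, 538784172 to 538786647, plus strand) had the smallest fold of all members, 1.02 (SE 0.27, 2.02-fold, DESeq2 adjusted p = 0.0242), and also the smallest SE.

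TraesCS3D02G366600 (3D, 480849878 to 480850701, plus strand) was the negative ferredoxin. In the authors' deposited table its log2 fold change was -2.56 (SE 0.46), a 5.89-fold difference with an interval from 3.16-fold to 11.0-fold. Its DESeq2 adjusted p of 3.02e-05 was the lowest of the 10 members, and by p-value it ranked 58th of the 861 listed genes. After shrinkage it was at -1.85 and ranked 23rd of the 420 negative genes. Its interval ran from -3.45 to -1.66, and the lowest interval of the 9 positive members began at 0.48. Listing at this FDR keeps each member's interval on the side of its sign, so intervals of opposite sign could not overlap. Plants hold several ferredoxins, among them leaf forms that serve photosynthesis and forms typical of roots and other non-green tissue, which receive electrons from NADPH. The description of the 3D gene was the single word ferredoxin, which does not say which form it encodes, and the same holds for the 7A and 5D genes.

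**Figure D2:**
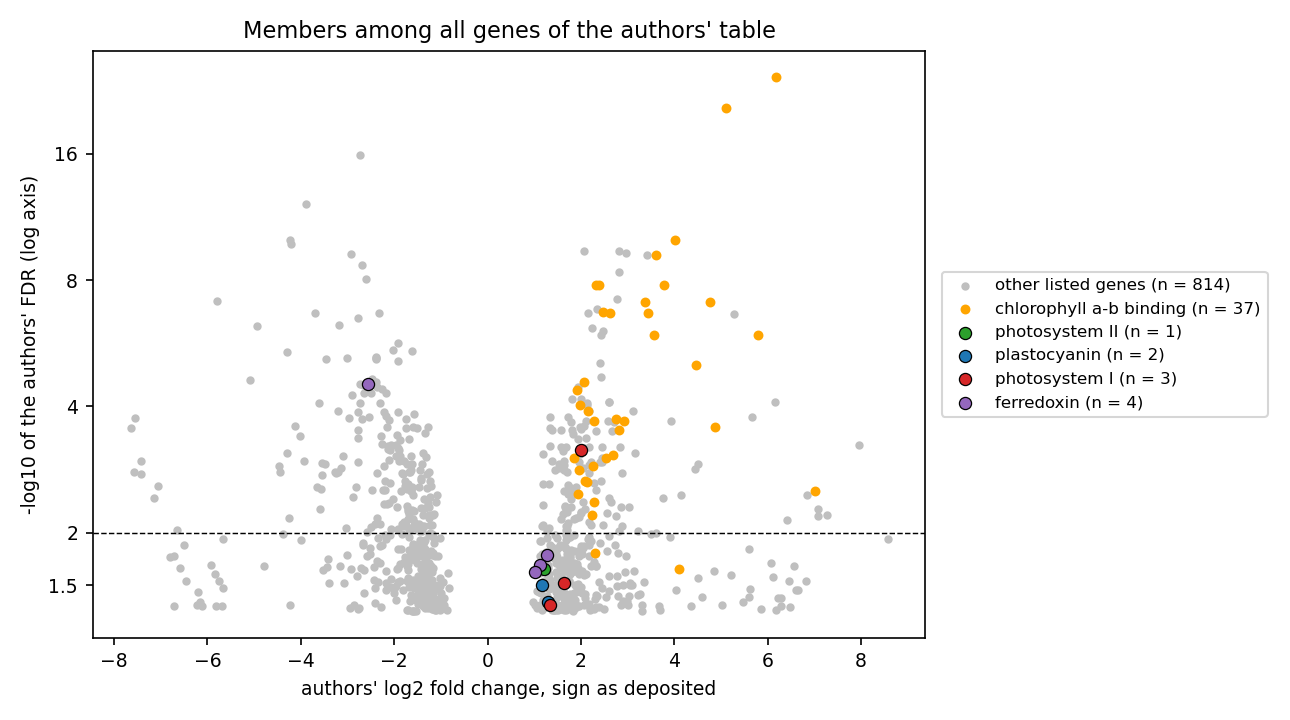
Each point is a gene of the authors' DESeq2 table, placed by log2 fold change with its sign as deposited (x axis) and by -log10 of the FDR (y axis, log scale), and the dashed line marks an FDR of 0.01. Most members sit low and near the centre on the positive side, and only photosystem I subunit 5 (2.00) and the 3D ferredoxin (-2.56) lie above the line.

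Most members were modest entries of the table by fold and by p-value. Only 2 of 10 members had an FDR under 0.01, whereas 41.9% of all listed genes did (361 genes, 0.471% of all tests). The other 8 ranked from 451st to 764th by p-value. The authors' shrinkage, which pulls uncertain folds towards 0, kept between 72.3% and 88.2% of each member's log2 fold change. The median kept over all listed genes was 74.6%. After shrinkage 6 of the 9 positive members were still more than 2-fold from equality, and the other 3, at 0.98 (plastocyanin on 7A), 0.97 (PETF) and 0.90 (ferredoxin on 5D), were just under it. The rule used the same contrast, so these shares describe the members and test nothing.

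Genes around the electron transport chain give the scale for these folds. All 37 listed chlorophyll a-b binding genes, which hold the antenna pigments, were positive, with log2 fold changes from 1.85 to 7.01. Of the 9 positive members 8 lay below the lowest of these values, and 7 lay below the lowest of the ribulose bisphosphate carboxylase small chain genes, which was 1.56. The median SE was 0.52 for the antenna, 0.45 for the small chain and 0.33 for the 9 positive members. A larger SE raises the smallest fold that can pass the FDR threshold. The lowest value of each list, and so these 2 counts, therefore partly reflect the selection. The small chain gene with the lowest FDR was TraesCS2D02G065400, at 2.77 (SE 0.41). Shrinkage narrowed the distance between the lists, with medians of 1.72 for the antenna, 1.30 for the small chain and 1.03 for the 9 positive members.

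The keyword list for chlorophyll synthesis took in 6 genes, of which 5 were positive and 1, described as a magnesium transporter and so not an enzyme of this pathway, was negative at -1.49. The 5 enzymes had a median log2 fold change of 1.69, and of 1.29 after shrinkage. They were 3 glutamyl-tRNA reductases, the entry step to chlorophyll and haem, and 2 copies of the cyclase that closes the fifth ring of chlorophyll. The cyclase gene on 3A had a log2 fold change of 1.34 (SE 0.37) and that on 3D one of 1.28 (SE 0.36), both in the band of the photosystem and plastocyanin genes. TraesCS1B02G075200, a glutamyl-tRNA reductase, had the lowest FDR of the list, with a log2 fold change of 2.82 (SE 0.37).

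On the acceptor side, the keyword list for enzymes that draw electrons from ferredoxin matched 3 genes. These were ferredoxin-nitrite reductases, which the rule left out and which assimilate nitrogen. They were positive, from 2.41 to 6.29. The highest of these, TraesCS6B02G364600 on 6B, was imprecise (SE 1.77), and after shrinkage it was the lowest of the 3, at 0.80, below every positive member. The one with the lowest FDR was TraesCS6A02G333900 on 6A, at 3.93 (SE 0.76). No ferredoxin-NADP reductase, ferredoxin-thioredoxin reductase, sulphite reductase or glutamate synthase was described in the table. In carbon reduction, 3 fructose-bisphosphate aldolases were positive, led by TraesCS5D02G122700 at 1.80 (SE 0.33). No listed gene was described as a part of the cytochrome b6f complex or of an ATP synthase, which stand between and beside the photosystems. Because 72.0% of the listed genes carry no description, these absences do not show that such genes did not differ. For any such gene of the chloroplast genome, it is also not known whether its transcripts were measured after the poly-T enrichment.

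**Figure D3:**
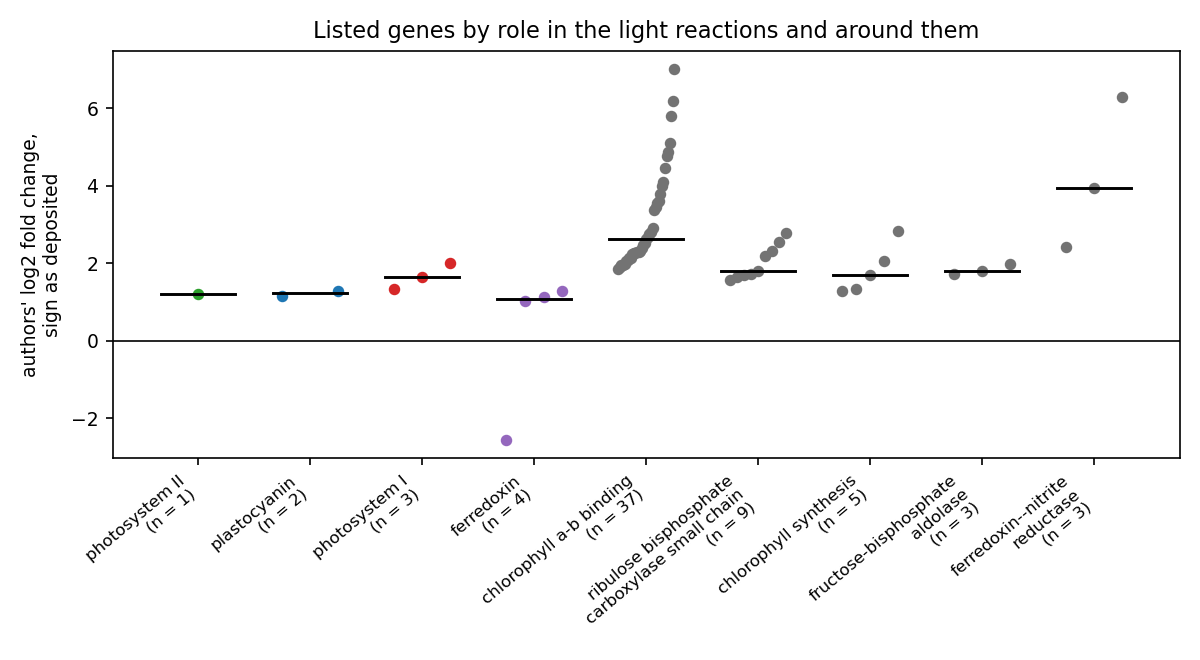
Authors' log2 fold change with its sign as deposited (y axis) for each listed gene, by role (x axis), with members in colour, other lists in grey and a bar at each median. The chlorophyll synthesis list is drawn without the magnesium transporter at -1.49, and its keywords missed the divinyl chlorophyllide reductase at 1.25. Of the groups drawn, all except the ferredoxins lie wholly above 0, and the photosystem II, plastocyanin and positive ferredoxin genes lie between 1.02 and 1.28, lower than every gene of the antenna list. The lowest fold a group can show depends on its SEs, because every gene drawn passed the FDR threshold.

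A description containing chloroplast, thylakoid or plastid was carried by 52 listed genes, and all 52 were positive. They included 4 members, the 37 antenna genes and 11 others. Among these 11, the subunit of the chloroplast signal recognition particle that delivers antenna proteins to the thylakoid was listed from 4B, 4D and 5A, and TraesCS4D02G323400 had the lowest FDR, at 2.14 (SE 0.40). The divinyl chlorophyllide reductase on 6D, also an enzyme of chlorophyll synthesis, was at 1.25 (SE 0.36). A stay-green like protein on 2D was at 1.20 (SE 0.34). The members without such a word were the plastocyanin genes, photosystem 1 subunit 5 and the ferredoxins of 3D, 5D and 7A.

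Members were spread over the genome. Of 8 chromosomes carrying a member, subgenome A held 5 members, subgenome B 2 and subgenome D 3. The split of all listed genes over the subgenomes was not computed, so no excess can be read from these counts. By identical description, none of the 6 member descriptions was present on all 3 subgenomes. Photosystem I subunit VI was present on 1A and 1D, and the single word ferredoxin on 3D, 5D and 7A. The 7B ferredoxin counted apart only because its description also names the chloroplast. This count went by wording alone. Because 3D, 5D and 7A are chromosomes of different number, it does not show that their ferredoxins are copies of one gene. The antenna and small chain lists were left out of this count. Among the 9 other descriptions around the members, 4 were present on all 3 subgenomes. These were nitrite reductase, aldolase, glutamyl-tRNA reductase and the signal recognition subunit. Whether an unlisted copy did not differ or fell just short of the threshold is not known.

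No listed gene overlapped a member, so no member shared its position with another listed transcript. Only 1 member had a listed neighbour within 10 gene numbers. This was the 5D ferredoxin, whose neighbour TraesCS5D02G516500, 237825 bases further on and without a description, lay on the opposite side with a log2 fold change of -1.65 (SE 0.37). The probes of the members spanned 432 to 2476 bases, with a median of 902.5 against 1789 over all listed genes, and the 5D ferredoxin was the longest.

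The authors' second deposited table, made by a selection called ID, held 52 genes, 0.0433% of its 120099 implied tests, and 0 of the 10 members. It did hold 20 antenna genes and 6 small chain genes, all with a negative Z-score, the sign that went with positive log2 fold changes in the 18 genes shared by both tables (opposite signs in 18 of 18). The smallest absolute Z-score it listed was 4.11. How that score was computed is not stated in the headers, so the absence of the members from it was not compared with their standing in the first table.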

How the data were processed

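Leaf mRNA of 3 control and 3 ultrasound samples was enriched with poly-T beads and sequenced, per the labels' protocols, with no mention of strand. Tools that the authors used, per the submitters' processing notes, were STAR 2.7.10a, Trim Galore 0.6.7, FastQC 0.11.9 and DESeq2, with roles left unstated. The genome build was not given in the sources used, and positions are as deposited. Per the file headers, the first table holds the authors' DESeq2 p-values (raw and FDR), log2 fold changes and shrunk log2 fold changes. The second deposited table holds p-values and one score per gene, a Z-score for the difference. Both list genes under an FDR of 0.05. With no count per library, depth is unknown and the planned edgeR test was not run.

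From these values the SE was computed as the absolute log2 fold change over the standard normal quantile that a two-sided p-value corresponds to (a Wald test is assumed), and intervals of 95% followed from it. Such an SE is not a spread measured over replicates. The number of tests was taken as the most frequent value of FDR times rank over p, which 336 of 861 genes shared. With that number of tests, the last gene's FDR implied a rank of at least 867. At least 6 genes under the threshold would then not be listed, and they were not analysed here. Both steps recovered the set values in data simulated with the same Wald and FDR formulas. This checks the arithmetic only, and neither the Wald assumption nor the effect of unlisted genes. The RefSeq gene table matched 0 identifiers. The members and keyword lists were chosen with earlier results of these data known. Every member is named. Of other genes, the text names those with the lowest FDR of a keyword list or near a member. The divinyl chlorophyllide reductase, the stay-green like gene, the 6B nitrite reductase, the magnesium transporter and the cyclase copies were named after their values were seen. The keywords for endosperm or embryo and for root each matched 0 listed genes. Python 3.11.15, pandas 2.3.3 and SciPy 1.17.1 were used.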

Additional observations from a re-analysis of the deposited data

How the results depend on the processing

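The split of 9 positive members and 1 negative member did not change when descriptions were counted whatever gene the ID column named, nor with one probe per overlapping group. Neither setting could change it, so they do not test the split. No description with the rule's words stood under another gene's ID, and no listed gene overlapped a member. At an FDR under 0.01 the members numbered 2, with 1 on the positive side, and the median log2 fold change of those 2 values of opposite sign was -0.28, against 1.24 over all 10. With one vote per description there were 6 votes, 0 of them negative, because 2 of the 3 genes described only as ferredoxin are positive. With log2 fold changes under 1.5 in size left out there were 3 members, 2 of them positive. The median was 1.03 with the shrunk values, 1.215 with one value per description, and between 1.18 and 1.28 when each of the 6 descriptions was left out. If the p-values came from a t distribution with 4 degrees of freedom, the median implied SE would be 0.085 in place of 0.35. Every fold rests on one comparison of at most 3 libraries a group, and expression level, depth and replicate spread are unknown. No paired analysis was possible because the tables hold no values per library. For the same reason other settings on counts (another normalisation, a filter on low counts, leaving out each replicate) were not run.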
